A study of Schizosaccharomyces pombe with 6 samples.

Results

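The 8 genes described here are arg1, arg3, arg4, arg5, arg6, arg7, arg11 and arg12 of the fission yeast Schizosaccharomyces pombe, which encode enzymes of arginine biosynthesis. They were taken by symbol from the 5160 entries of the deposited table. They were singled out because earlier results on these libraries had placed several of them lower in the mutant, so the difference between genotypes is given below as a description and not as a test. The annotated activities in the deposited table matched the label for each of the 8 genes. Transcripts were measured by sequencing of poly(A)-selected RNA from whole cells in 6 libraries, 3 of the wild type (labelled WT) and 3 of a mutant of dsk1, a kinase of SR splicing proteins. The series text calls the mutant a deletion and the genotype label calls it a knockdown. The labels state neither the strain background, the growth medium nor the culture stage. They also do not say whether the replicates were separate cultures, so the errors below may be technical.

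Arginine is built from glutamate. In mitochondria, glutamate is acetylated, phosphorylated, reduced and given an amino group, and removal of the acetyl group leaves ornithine. Ornithine and carbamoyl phosphate are joined to citrulline, and in the cytosol citrulline and aspartate are joined to argininosuccinate, which is split into arginine and fumarate. In budding yeast the pathway is known for repression by arginine and for induction under amino acid starvation through the activator Gcn4. In fission yeast the GATA-type zinc finger factor Fil1 is known as an activator of amino acid synthesis genes under starvation.

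The libraries held 15700362 to 19020530 counts. The dsk1 transcript checked the labels, at 99.4 to 102 CPM (counts scaled to library size, here with trimmed mean of M-values factors, TMM) in the wild type and 11.3 to 13.7 CPM in the mutant. The groups differ in more than dsk1, since ura4, a pyrimidine synthesis gene used as a selectable marker, was counted 0 times in every wild-type library and 1392 to 1957 times in the mutant libraries. Wild-type replicate 2 stood apart from the other libraries. Its score on principal component 1, which held 60.1% of the variance, was -37.9. The scores of the other wild-type libraries were -9.54 and -2.29, and mutant scores ran from 13.1 to 19.6. The differences of the 8 genes and the medians of gene lists are therefore given with and without wild-type replicate 2.

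The sequences upstream of 5 of the genes are shown because 4 of these genes had the largest differences between genotypes and the fifth, arg4, encodes the partner subunit of arg5 and differed little. Each line gives the 250 bases before the annotated transcript start, 5′ to 3′ on the gene's own strand, from the RefSeq assembly ASM294v3. Not all of this sequence lies between genes. On the same strand, the annotated rxt2 gene ends 1 base before arg12 and ubc12 ends 25 bases before arg1, so these 2 lines run into those genes. The authors' genome build is not given in the sources used here, so these positions belong to ASM294v3 alone. Capitals mark GATAAG and CTGATA on either strand, so that CTTATC and TATCAG are their reverse complements.
arg12 (chrII:451026-451275, minus strand): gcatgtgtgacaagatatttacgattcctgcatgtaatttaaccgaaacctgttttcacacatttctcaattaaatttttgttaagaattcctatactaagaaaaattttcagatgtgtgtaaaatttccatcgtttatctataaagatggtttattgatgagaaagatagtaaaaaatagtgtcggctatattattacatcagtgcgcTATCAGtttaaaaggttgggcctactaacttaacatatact
arg3 (chrI:2273671-2273920, plus strand): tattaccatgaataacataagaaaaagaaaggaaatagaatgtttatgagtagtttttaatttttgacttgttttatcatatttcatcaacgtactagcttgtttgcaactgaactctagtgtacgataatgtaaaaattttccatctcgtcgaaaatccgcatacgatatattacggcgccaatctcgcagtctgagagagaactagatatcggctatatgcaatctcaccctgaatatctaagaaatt
arg5 (chrII:4094020-4094269, plus strand): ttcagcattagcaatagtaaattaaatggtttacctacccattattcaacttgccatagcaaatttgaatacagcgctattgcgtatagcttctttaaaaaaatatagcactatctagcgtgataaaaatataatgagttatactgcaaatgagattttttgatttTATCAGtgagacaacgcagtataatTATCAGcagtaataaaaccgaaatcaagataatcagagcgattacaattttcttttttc
arg1 (chrIII:1614937-1615186, minus strand): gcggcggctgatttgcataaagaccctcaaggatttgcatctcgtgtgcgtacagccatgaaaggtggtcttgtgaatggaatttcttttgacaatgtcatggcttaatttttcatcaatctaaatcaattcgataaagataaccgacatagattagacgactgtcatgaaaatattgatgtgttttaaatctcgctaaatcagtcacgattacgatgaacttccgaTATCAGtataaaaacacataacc
arg4 (chrII:4045332-4045581, minus strand): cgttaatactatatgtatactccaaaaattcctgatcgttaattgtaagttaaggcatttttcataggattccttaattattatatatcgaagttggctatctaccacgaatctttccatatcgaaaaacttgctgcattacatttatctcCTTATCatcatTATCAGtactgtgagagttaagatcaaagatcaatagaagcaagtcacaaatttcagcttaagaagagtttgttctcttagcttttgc

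The motif TGACTC, the core bound by Gcn4 in budding yeast, was in 0 of the 8 windows running from 250 bases before to 50 bases after the start, searched on both strands. It was in 6.95% of the 5123 windows of all protein-coding genes. The GATA-type motif GATAAG was in 2 of the 8 windows, those of arg4 and arg7, and in 11.6% of all windows. A further motif with a GATA core, CTGATA, was searched only after the 8 sequences had been read. It was in the windows of arg1, arg12, arg4 and arg5, which is 4 of 8, and in 12.8% of all windows. The matches lay 23 bases before the start of arg1, 41 before arg12, 88 before arg4, and 84 and 59 before arg5, each in the reverse orientation. The match before arg12 lay within the neighbouring gene rxt2, which ends 1 base before arg12. The windows of arg1 and arg6 also ran into a neighbouring gene, 25 and 37 bases away. A shorter window held the 150 bases nearest the start, of which 50 lay after it. There the shares over all genes were 3.73% for TGACTC, 5.99% for GATAAG and 6.3% for CTGATA. The numbers of arginine genes with a match were the same 0, 2 and 4. GATAAG and CTGATA can overlap through their shared GATA, but in arg4 they did not. The CTGATA match was shared by genes that differed between genotypes (arg1, arg5 and arg12) and a gene that differed little (arg4), and arg3 had none of the 3 motifs. A match to 6 letters is a description of sequence and not a binding site.

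Of the 8 transcripts, 6 were lower in each mutant library than in any wild-type library. These were arg6, arg11, arg1, arg5, arg3 and arg12, at 49.8% to 76.4% of the wild-type level. The other 2, arg4 and arg7, overlapped between genotypes and were at 93.2% and 93.6%. Among the 4987 genes tested, 16.6% had all mutant libraries below all wild-type libraries, and 32.1% had no overlap in either direction. In bulk RNA, a lower level of a transcript in each cell and fewer cells that express it cannot be told apart.

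The first committed steps make ornithine. N-acetylglutamate synthase, encoded by arg6, acetylates glutamate and opens the pathway. The arg6 transcript was at 246, 251 and 203 CPM in the wild type and at 168, 157 and 178 CPM in the mutant. All mutant values lay below the lowest wild-type value, and the 2 higher wild-type libraries were replicates 1 and 2. The log2 fold change (mutant over wild type, with the standard error of the fit) was -0.48 (SE 0.13), and -0.42 without wild-type replicate 2. The arg11 transcript encodes a precursor of both acetylglutamate kinase and N-acetyl-gamma-glutamyl-phosphate reductase, which phosphorylate and reduce the acetylated intermediate. It was at 706, 724 and 740 CPM in the wild type and 504, 506 and 647 CPM in the mutant. The wild-type libraries were close together, with a highest value 1.05 times the lowest, and mutant replicate 3 lay nearest to them. For arg11 this came to a log2 fold change of -0.39 (SE 0.14), the same to 2 decimals without wild-type replicate 2.

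Acetylornithine aminotransferase, encoded by arg1, adds the amino group that turns the acetylated intermediate into acetylornithine. Its transcript was among the most abundant of the 8, at 1027, 1576 and 976 CPM in the wild type and 668, 652 and 796 CPM in the mutant. Wild-type replicate 2 stood well above the other wild-type libraries, and the mutant libraries lay below all of them. For arg1 this was a log2 fold change of -0.76 (SE 0.21), and -0.50 without wild-type replicate 2. Release of ornithine from acetylornithine is the annotated role of SPBC1271.14, a predicted glutamate N-acetyltransferase that RefSeq names aga1 and that is not among the 8 genes. Its transcript was at 114 CPM in the wild type and 117 CPM in the mutant, with a log2 fold change of 0.033 that did not pass the test (edgeR, adjusted p = 0.88). The transcript of ort1, a predicted mitochondrial ornithine carrier, was at 95.6 and 92.4 CPM (edgeR, adjusted p = 0.905). Both genes, and ura1 below, were named after their values had been seen.

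Carbamoyl phosphate for arginine is made by a synthase of a small and a large subunit, and the 2 subunit transcripts behaved differently. The small subunit, which takes the amino group from glutamine, is encoded by arg5, at 323, 472 and 283 CPM in the wild type and 216, 179 and 241 CPM in the mutant. The groups did not overlap, and wild-type replicate 2 was again the highest library. The log2 fold change of arg5 was -0.76 (SE 0.21), and -0.52 without wild-type replicate 2. The large subunit, which forms carbamoyl phosphate, is encoded by arg4, at 637, 758 and 518 CPM in the wild type and 643, 552 and 588 CPM in the mutant. The mutant values lay within the wild-type range. The log2 fold change of arg4 was -0.10 (SE 0.16, 95% interval -0.49 to 0.28), and 0.044 without wild-type replicate 2, so its sign depended on that library.

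Compared per length, as FPKM (the deposited values, scaled by gene length and library size), the subunit transcripts were at nearly equal levels in the wild type. The ratio of arg5 to arg4 was 0.96, 1.18 and 1.03 in the wild-type libraries and 0.63, 0.61 and 0.77 in the mutant libraries. Every mutant ratio lay below every wild-type ratio, and without wild-type replicate 2 the remaining wild-type ratios were still above the highest mutant ratio. The carbamoyl phosphate synthase of pyrimidine synthesis is part of the ura1 protein in fission yeast. The ura1 transcript was at 620 CPM in the wild type and 480 CPM in the mutant, and its log2 fold change of -0.37 (edgeR, adjusted p = 0.414) was -0.022 without wild-type replicate 2.

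Ornithine carbamoyltransferase, encoded by arg3, joins ornithine and carbamoyl phosphate to citrulline. The arg3 transcript was at 101, 145 and 98.7 CPM in the wild type and at 63.6, 64.4 and 63.2 CPM in the mutant. The mutant libraries were nearly identical, and the wild type was spread by replicate 2. Its log2 fold change was -0.85 (SE 0.17), and -0.64 without wild-type replicate 2. The arg3 and arg11 genes are neighbours on chromosome I and point away from each other, with 1196 bases between them in ASM294v3. Their ratio in FPKM, arg3 over arg11, was 0.24, 0.34 and 0.23 in the wild type and 0.22, 0.22 and 0.17 in the mutant. These ratios did not overlap between genotypes, but those of wild-type replicate 3 and mutant replicate 2 were close, at 0.229 and 0.218.

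Argininosuccinate synthase, encoded by arg12, joins citrulline and aspartate and had the largest difference of the 8. Its transcript was at 1016, 1506 and 960 CPM in the wild type and at 543, 493 and 700 CPM in the mutant. Every mutant library was below every wild-type library, and replicate 2 was the highest in the wild type. This was a log2 fold change of -1.005 (SE 0.22), a level 49.8% of the wild type, and it was -0.77 without wild-type replicate 2. Argininosuccinate lyase, encoded by arg7, releases arginine and had the lowest transcript of the 8. It was at 50.4, 31.9 and 60.1 CPM in the wild type and 45.9, 41.9 and 45.4 CPM in the mutant. The mutant values lay within the wild-type range, and wild-type replicate 2, the highest library for most of the other genes, was here the lowest. The log2 fold change of arg7 was -0.10 (SE 0.22, 95% interval -0.62 to 0.43), -0.31 without wild-type replicate 2 and 0.11 without wild-type replicate 3.

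**Figure D1:**
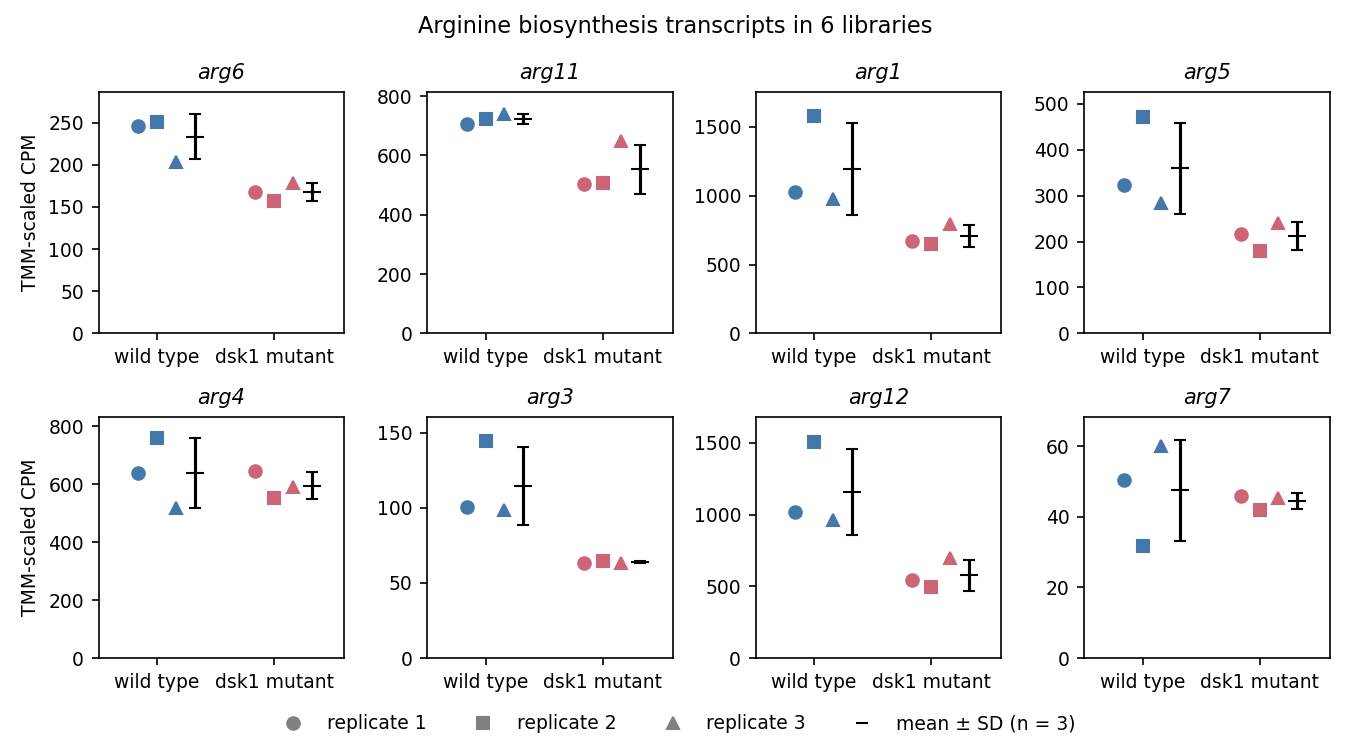
TMM-scaled CPM (vertical axes, linear and starting at 0) of the 8 arginine genes in each library, in pathway order, with circles, squares and triangles for replicates 1, 2 and 3 and bars for mean ± SD of 3 libraries. The mutant libraries lie below all wild-type libraries for 6 genes and overlap them for arg4 and arg7, and wild-type replicate 2 is the highest wild-type library for 6 genes and the lowest for arg7.

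A second gene annotated as an argininosuccinate lyase, arg41, is not among the 8 and was named after its values had been seen. It was at 184, 214 and 197 CPM in the wild type and 167, 154 and 219 CPM in the mutant, which overlapped (log2 fold change -0.14, SE 0.16). The coding sequences of arg7 and arg41 were 71.4% identical over 1145 aligned bases, and arg41 was 3.99 to 8.16 times arg7 in FPKM across the libraries. The ratio of arg12 to arg7 and arg41 together was 4.39, 6.10 and 3.78 in the wild type and 2.57, 2.54 and 2.65 in the mutant, in FPKM. The synthase transcript was thus lower relative to the lyase transcripts in every mutant library, including when wild-type replicate 2 is set aside.

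**Figure D2:**
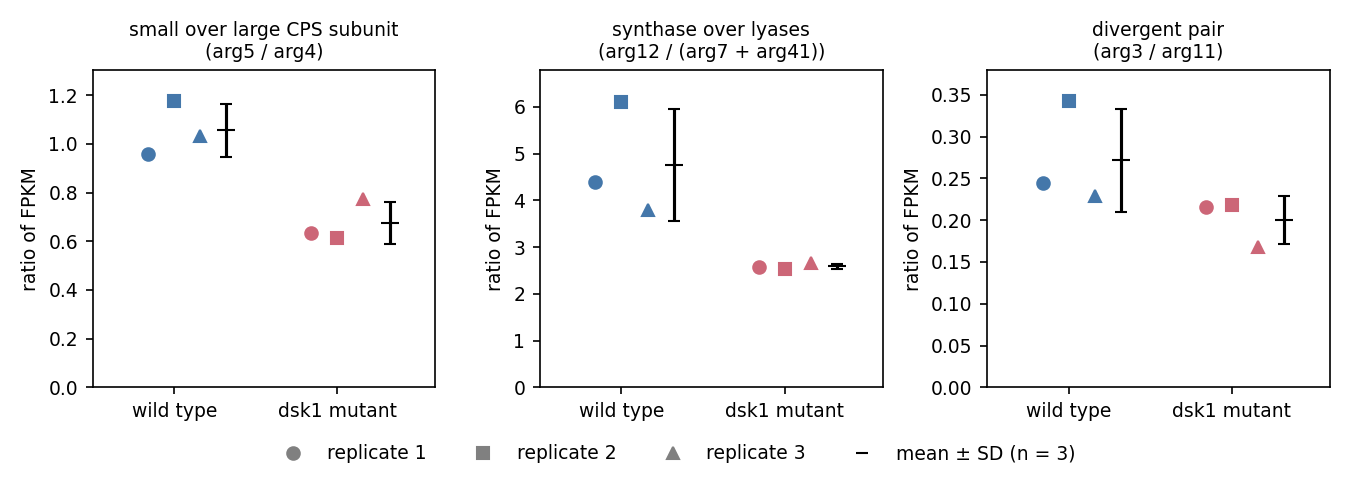
Ratios of FPKM between transcripts of the pathway (vertical axes, starting at 0) in each library, with symbols for replicates 1 to 3 and bars for mean ± SD of 3 libraries. The ratio of arg5 to arg4 is 0.96 to 1.18 in the wild type and 0.61 to 0.77 in the mutant, the ratio of arg12 to both lyases is 3.78 to 6.10 and 2.54 to 2.65, and the ratio of arg3 to arg11 differs least.

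None of the 8 differences passed the test across all genes. With the quasi-likelihood test of edgeR and adjustment over all 4987 genes tested, 0 of 8 were called at an adjusted p under 0.05, where 2.03% of tested genes were called in either direction and 1.58% lower. Without wild-type replicate 2 the same test called 2 of 8 (arg3 and arg12), against 6.02% of genes. With upper-quartile scaling 1 of 8 was called (arg3), against 2.05%, and likewise 1 of 8 (arg3) among genes with at least 5 CPM in 3 libraries, against 2.08%. At an unadjusted p under 0.05, 6 of 8 were lower and 0 higher, against 13.5% and 9.2% of tested genes. The DESeq2 Wald test called 5 of 8 lower (arg6, arg1, arg5, arg3 and arg12), against 7.1% of genes. With limma on log2(FPKM + 1), among genes with a mean of at least 1 FPKM, 2 of 8 were called lower (arg3 and arg12), against 1.53%, and on log2(FPKM + 0.1) the same 2, against 1.47%. Without that filter limma on log2(FPKM + 1) called 0 of 8, against 1.03%. In the authors' deposited table, the same 5 genes as with DESeq2 had an adjusted p under 0.05 and a negative log2 fold change, against 7.03% of its entries. Its adjusted p values for the 8 genes equalled those of the DESeq2 Wald test above, so the 2 are not separate results. Since the genes were chosen with this contrast known, nothing is read from these counts.

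**Figure D3:**
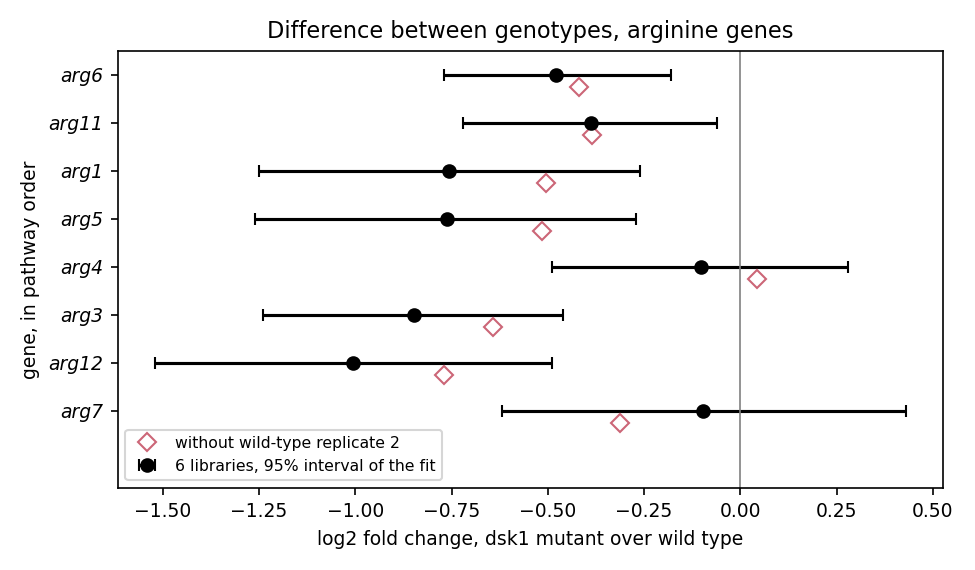
Log2 fold change of each arginine gene (horizontal axis, mutant over wild type) in pathway order, with the unadjusted 95% interval of the edgeR fit on 6 libraries (filled points) and the value without wild-type replicate 2 (open diamonds). Without that library the value moves toward 0 for arg12, arg3, arg1 and arg5, from -0.10 to 0.044 for arg4 and from -0.10 to -0.31 for arg7.

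The 8 transcripts together made up 0.436% ± 0.0469 (SD, n = 3) of the counts in the wild type and 0.296% ± 0.0139 (SD, n = 3) in the mutant. Summed over the 8 genes, the wild type had 4106, 5463 and 3838 CPM and the mutant 2852, 2645 and 3259 CPM. The groups did not overlap, and the mutant mean was 65.3% of the wild-type mean. The median log2 fold change of the 8 was -0.62, and -0.46 without wild-type replicate 2, with a median over all tested genes of 0.01 in that fit.

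Per length, the order of levels spanned a wide range. In the wild type arg12 (683 ± 116 FPKM, SD, n = 3) and arg1 (668 ± 126 FPKM, SD, n = 3) were the highest and overlapped. They were above 96.6% and 96.5% of tested genes. Then came arg11 at 237 ± 20.5 FPKM (SD, n = 3). Below it arg5, arg4 and arg6 followed at 164, 154 and 130 FPKM, with overlapping neighbours in this order. The transferase gene arg3 stood lower at 63.8 ± 8.79 FPKM and arg7 lowest at 24.3 ± 8.89 FPKM (SD, n = 3 each), the latter above 34.9% of tested genes. In the mutant arg1 (412 FPKM) and arg12 (354 FPKM) were again the highest and overlapped. The large subunit gene arg4 (150 FPKM) stood there above arg5 (100.4 FPKM) without overlap, and arg6 was at 96.5 FPKM. The lowest were again arg3 (37.0 FPKM) and arg7 (23.1 FPKM), which did not overlap.

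The wild-type libraries ranked alike for most but not all of the 8 genes. Wild-type replicate 2 was the highest wild-type library for 6 of the 8 (arg6, arg1, arg5, arg4, arg3 and arg12), as it was for 43.9% of all tested genes. For arg1, arg5, arg12 and arg3 it was 1.57, 1.56, 1.52 and 1.45 times the mean of the other 2 wild-type libraries. For arg4 the factor was 1.31, for arg6 1.12, for arg11 1.0 and for arg7 0.577. The 4 genes with the highest factors are also the 4 with the largest differences between genotypes, a comparison that shares the wild-type libraries. In FPKM wild-type replicate 2 was the highest for 5 of the 8, without arg6, against 28.7% of tested genes. Within the mutant, replicate 3 was the highest for 5 of the 8 (arg6, arg11, arg1, arg5 and arg12), against 38.4% of tested genes, and replicate 2 the lowest for 6, against 30.3%. In FPKM these counts were 4 and 4, against 19.1% and 18.8%.

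Genes with a pattern like that of the family were ranked by Pearson's correlation of log2 CPM with the mean of the 8 genes over the 6 libraries, among 4750 other genes with a mean of at least 5 CPM. The 5 highest were rpa43, a subunit of RNA polymerase I (r = 0.999), slc1, a predicted acyltransferase of phospholipid synthesis (0.996), the serine synthesis gene ser1 (0.996), emc1, a subunit of the ER membrane protein complex (0.994), and SPBC1703.07, a predicted subunit of ATP citrate synthase (0.994). The points share 6 libraries and the 2 genotypes, and 8.34% of the 4750 genes reached r of at least 0.9. When values were centred within each genotype the 5 highest were others (tef103, anc1, srs1, SPBC216.03 and sks2), with 0 shared. Correlated with the mean of the other 7 over the 6 libraries, without centring, arg12 had r = 0.99, arg5 0.97, arg1 and arg6 0.96, arg3 0.94, arg11 0.86, arg4 0.48 and arg7 -0.32. These values include the difference between genotypes for which the genes were chosen. Centred within each genotype, arg12 had r = 0.98, arg5 0.97, arg1 0.91, arg6 0.77, arg4 0.70, arg3 0.67, arg11 0.39 and arg7 -0.83.

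A list of genes around the use and transport of arginine and ornithine was mixed. It also held SPBC1271.14, annotated with the release of ornithine, ura1 of pyrimidine synthesis, and spe2, for S-adenosylmethionine decarboxylase. Of its 21 genes, all tested, 1 fell, 0 rose and 20 did not pass. Over all tested genes 1.58% fell. The median log2 fold change of the 21 was -0.29, and 15 were below 0, as were 2494 of all 4987 tested. Before adjustment 7 were lower and 3 higher at p under 0.05, against 13.5% and 9.2% of tested genes. DESeq2 called 6 lower, against 7.1%, and 1 higher, where it called 205 of the 4987 tested genes higher. Without wild-type replicate 2 the median was -0.09 and 4 fell, against 6.02%. The gene that fell was SPBC8E4.03, a predicted agmatinase, from 383 ± 59.6 to 198 ± 26.6 CPM (SD, n = 3), with a log2 fold change of -0.96 (SE 0.16, edgeR, adjusted p = 0.035) and -0.83 without wild-type replicate 2. SPAP11E10.01, of the ornithine cyclodeaminase family, was at -0.59 without passing, and the cationic amino acid transporter gene cat1 at -0.64. The arginase gene aru1 was at -1.29, and at -0.75 without wild-type replicate 2. Genes on the other side of 0, named after their values had been seen, were the arginine transporter gene can1 at 0.40 (SE 0.13), spa1, for the antizyme of ornithine decarboxylase, at 0.39 (SE 0.11), and the urease gene ure2 at 0.29 (SE 0.11). None of these 3 passed the test with edgeR.

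A list of 12 genes around the supply of glutamate, aspartate and proline also held genes for their use, among them asn1, gln1, put1 and put2. Of the 12, 0 were called by edgeR, against 2.03% of tested genes in either direction. At an unadjusted p under 0.05, 4 of them were lower, against 13.5% of tested genes, and 0 higher, against 9.2%. DESeq2 called 3 lower, against 7.1%, and limma called 0, against 1.53% lower. The median was -0.15, or -0.10 without wild-type replicate 2. The NADP-type glutamate dehydrogenase gene gdh1 was at -0.71 (SE 0.23), and at -0.45 without wild-type replicate 2. The asparagine synthase gene asn1 was at -0.66 (SE 0.20), put2, for the last enzyme of proline breakdown, at -0.48 (SE 0.15) and the proline synthesis gene pro1 at -0.42 (SE 0.15).

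Of 14 regulators of amino acid supply, edgeR called 0, against 2.03% of tested genes in either direction. DESeq2 called 1 lower, against 7.1%, and limma called 0, against 1.53% lower. Before adjustment, 1 was lower in edgeR at p under 0.05, against 13.5% of tested genes, and 0 were higher, against 9.2%. The median was 0.12, or 0.067 without wild-type replicate 2. The gene of the alpha subunit of eIF2B, tif221, was at -0.54 (SE 0.16), the eIF2 alpha kinase gene hri1 at 0.80 (SE 0.42), gcn20 at 0.18 (SE 0.11) and tsc1 at 0.16 (SE 0.13). Without wild-type replicate 2, hri1 was at 0.41 and tsc1 at 0.074. The transcript of fil1, named after its values had been seen, was at 302, 436 and 282 CPM in the wild type and 414, 364 and 358 CPM in the mutant. These values overlapped through wild-type replicate 2, again the highest of the wild type. The other wild-type libraries lay below all mutant libraries. The log2 fold change of fil1 was 0.155 (SE 0.18, edgeR, adjusted p = 0.623), and 0.377 without wild-type replicate 2.

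Genes for the synthesis of other amino acids leaned the same way as the arginine genes. Of 51, all tested, 46 were below 0 and the median was -0.39 on the log2 scale, while 2 fell, 0 rose and 49 did not pass. Of all 4987 tested genes 2494 were below 0 and 1.58% fell. Before adjustment 27 of the 51 were lower and 1 higher at p under 0.05 in edgeR, against 13.5% and 9.2% of tested genes. DESeq2 called 10 of the 51 lower, against 7.1%, and limma 5, against 1.53%. The aspartate kinase gene hom3 (SPBC19F5.04), at the head of threonine and methionine synthesis, fell from 499.8 ± 33.4 to 274 ± 16.8 CPM (SD, n = 3), by 0.87 on the log2 scale (SE 0.12, edgeR, adjusted p = 0.0208). The serine synthesis gene ser3 fell from 997 ± 265 to 433 ± 72.6 CPM (SD, n = 3), by 1.20 on the log2 scale (SE 0.23, edgeR, adjusted p = 0.0461). The serine gene ser1 was at -0.90 and the leucine gene leu1 at -0.83 without passing. Without wild-type replicate 2 the median of the 51 was -0.25 and 8 fell, against 6.02% of tested genes. The medians of -0.62 for the arginine genes and -0.39 for the other 51 were not tested against each other.

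**Figure D4:**
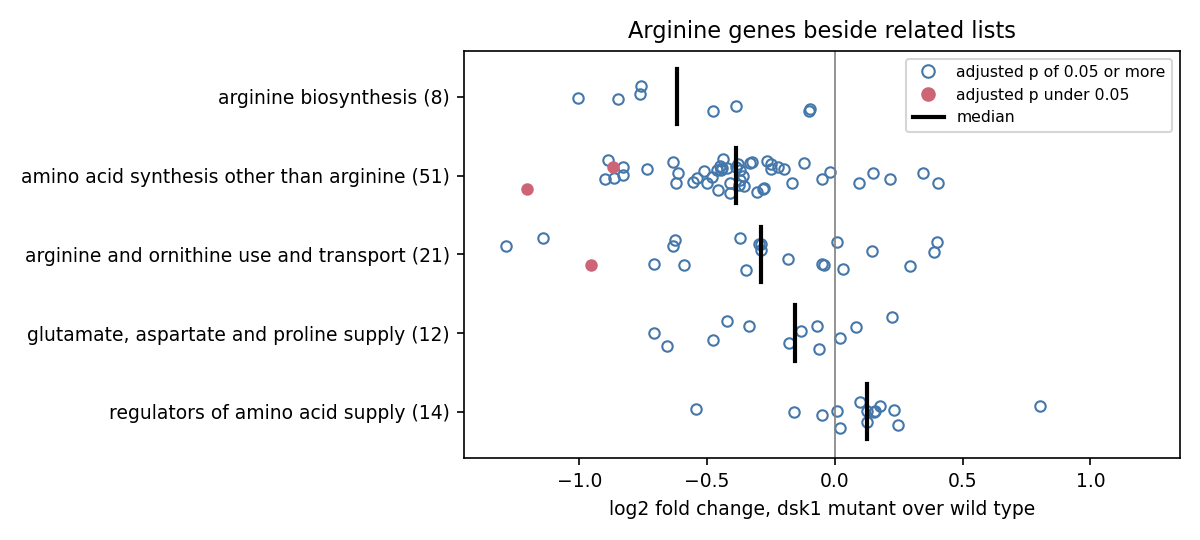
Log2 fold change (horizontal axis, mutant over wild type) of every gene of 5 lists, with the number of genes in brackets, filled points for genes with an edgeR adjusted p under 0.05 and a black bar at the median of each list. The medians run from -0.62 for arginine synthesis through -0.39 for other amino acids and -0.29 for arginine use to 0.12 for the regulators.

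The nearest protein-coding neighbours were taken from ASM294v3 among genes that do not overlap the arginine gene. This left out cmb1, which overlaps arg3 by 14 bases on the other strand. Most of the neighbours were below 0, and only omh3, rpc2 and pdp2 were above it. Of all 4987 tested genes 2494 were below 0. For arg12 the neighbours were apq12 at -0.61 and rxt2 at -0.22, and for arg1 they were ubc12 at -0.62 and omh3 at 0.05. For arg5 they were alg5 at -0.21 and puf1 at -0.02, for arg4 pdp2 at 0.41 and erg10 at -0.26, and for arg6 ura5 at -0.32 and psf2 at -0.19. For arg7 they were SPBC1773.13 at -0.23 and dal52 at -0.18, and beside the arg3 and arg11 pair they were idn1 at -0.04 and rpc2 at 0.05. None of the neighbours passed the test with edgeR. The 8 genes lie on chromosomes I (arg3 and arg11), II (arg4, arg5, arg6, arg7 and arg12) and III (arg1). Only arg1 has an intron among the 8 in the RefSeq annotation, with 2 exons.

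Some limits concern how reads were assigned. Whether counting used strand is not stated. RefSeq annotates non-coding RNAs on the other strand over 7.4% of arg1, the least of the 8, and over all of arg4, while 0 entries of the deposited table are such RNAs. If counting ignored strand, reads from the RNAs on the other strand cannot be told apart from reads of the genes themselves. On the same strand, rxt2 lies 1 base from arg12 and ubc12 25 bases from arg1. How reads at these borders were assigned is not stated. Copies that could share reads were few, since the closest coding-sequence match of any of the 8 was that of arg7 to arg41, followed by arg5 to ura1 (70.2% over 161 bases) and arg4 to ura1 (66.4% over 1134 bases).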

How the data were processed

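Messenger RNA of 3 wild-type and 3 dsk1 mutant libraries was compared, with groups taken from the genotype label of each sample. Per the submitters' processing notes, the tools included HISAT2, Bowtie2, RSEM, StringTie, DESeq2 and fastp; versions and roles are not stated. Per the file headers, each gene has the authors' count and FPKM in each library. The authors' own comparison is deposited beside them as a log2 fold change with its p-value and false discovery rate. All deposited counts are whole, with no statement on rounding. Library totals were 15700362 to 19020530 counts, and 3 counts, the floor for a count of 0, are 0.158 to 0.191 CPM before TMM scaling.

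The reported fit was edgeR's quasi-likelihood test (version 4.0.16, R 4.3.3) on TMM-normalised counts, after the default filter on low counts, which kept 4987 genes (all 8 arginine genes among them), genotype as the only term and Benjamini-Hochberg adjustment over all genes. Intervals use 7.54 degrees of freedom from the fit. The edgeR, DESeq2 and limma tests were tested on simulated data. No library copied another (chi-square per degree of freedom 26.7 to 279.6 between replicates). The alternatives were other scalings and filters, DESeq2 1.42.0, limma 3.58.1 on FPKM with pseudocounts of 1 and 0.1, with and without a minimum mean FPKM of 1, a replicate block, removal of a trend with gene length, and each library left out.

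The arginine genes and the gene lists were chosen with earlier results of these data known. All 8 members, the 5 genes most alike, up to 4 genes with the smallest p of each list, genes that passed, and chromosomal neighbours are named; other genes are said to have been named after their values were seen. Of 101 names in the lists, 8 matched no gene. RefSeq ASM294v3, matched to 5109 of the 5160 entries, gave names, neighbours and sequences. Coding sequences were compared with blastn.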

Additional observations from a re-analysis of the deposited data

How the results depend on the processing

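The median log2 fold change of the 8 arginine genes was below 0 in every alternative run, from -0.73 without wild-type replicate 3 to -0.46 without wild-type replicate 2. The arg6, arg11, arg1, arg5, arg3 and arg12 genes also stayed below 0 throughout. Of 136 values of single genes under the alternatives, 119 kept their direction and side of the threshold, 15 newly passed it and 2 reversed, both with a library left out. Left out in turn, the libraries gave -0.231 (without wild-type replicate 3) to 0.044 (without wild-type replicate 2) for arg4 and -0.313 (without wild-type replicate 2) to 0.111 (without wild-type replicate 3) for arg7. The number of arginine genes called was 0 in the reported fit, 1 with upper-quartile factors and 1 with the filter of at least 5 CPM in 3 libraries (arg3 in both), 5 with DESeq2, and with limma 2 at either pseudocount under the minimum mean FPKM of 1 but 0 when all genes were kept. With 1 library left out it was 0 to 2, the 2 being arg3 and arg12 without wild-type replicate 2 or 3. Over all genes, 101 were called in the reported fit, 568 by DESeq2 and 63 by limma on log2(FPKM + 1) with all genes, and 3 to 466 when a library was left out. Leaving out wild-type replicate 1, 2 or 3 gave 11, 466 or 179 called genes, and leaving out mutant replicate 1, 2 or 3 gave 5, 7 or 3. Such fits also have fewer libraries to estimate the spread. The cause of the other changes was not tested. Under the replicate block 3 genes were called over all genes, or 4 with the length trend removed as well, and 0 arginine genes. Deviations of same-numbered libraries from their group means had correlations of 0.165, -0.358 and -0.187. Those of differently numbered libraries ran from -0.227 to 0.408. Such deviations sum to 0 within each genotype, so these correlations depend on each other and cannot settle whether the numbers pair the libraries. The median over all genes moved by at most 0.052 in any alternative. The 5 genes most alike the arginine genes changed completely, with 0 shared, when values were centred within genotypes. At these depths the lowest arginine gene, arg7, had 474 to 1128 counts per library, and the spread between libraries, not counting error, limits its difference.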
